A study of Macaca mulatta with 24 samples.

Results

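The 200 transcripts described here were selected on measured values: they are the most abundant transcripts of the fetal hippocampus that were scarce in the lung and the liver of the same fetuses. A transcript met the selection when its mean in the 8 hippocampus libraries was at least 10 CPM (the count scaled to a library total of 1000000) and at least 20 times its mean in both other tissues. Of 45579 transcripts listed, 1172 met it, or 8.82% of the 13293 with a mean of at least 10 CPM in the hippocampus, and the 200 with the highest hippocampus mean were kept.

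From 8 Rhesus macaque fetuses, polyadenylated RNA of hippocampus, lung and liver was sequenced, giving 24 libraries, 4 per treatment in each tissue. With the clinical treatment the mother received betamethasone phosphate plus betamethasone acetate by intramuscular injection, as 2 doses of 0.25 mg/kg with 24 h between them, and these fetuses had a gestational age of 132 to 133 days. With oral Beta-P the mother received betamethasone phosphate by mouth, as 3 doses of 0.15 mg/kg with 12 h between them, and these fetuses had a gestational age of 127 to 132 days. All fetuses were delivered 5 days after the start of treatment. All 8 were exposed to a corticosteroid, so every comparison is between the treatments and none is with untreated animals. In the hippocampus, clinical animals 1, 2 and 3 were sequenced in one run, and clinical animal 4 and the 4 oral animals in another. The hippocampus libraries held 22537044 to 32788826 counts with the clinical treatment and 32836217 to 35254898 with oral Beta-P, the lung libraries 21088272 to 28641485 and the liver libraries 25803825 to 32122919.

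The hippocampus is a part of the brain that serves memory and spatial learning, and before birth it is a tissue of young neurons, glia and the precursors of both. Transcripts that are plentiful in brain and scarce in lung and liver are often those of neurons, such as transcripts for proteins of synapses and axons. Betamethasone binds glucocorticoid receptors, which change the transcription of their target genes. The paper examined the hippocampus with regard to potential risks to neurodevelopment. The tables list Ensembl transcripts without gene names, so no transcript could be assigned to a gene or a cell type, and the labelled tissue was not checked against marker genes. In whole tissue, fewer cells of a type and less RNA per cell cannot be told apart.

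In the hippocampus the means of the 200 transcripts ran from 171 to 2202 CPM with a median of 325 CPM. Of these, 59 were at 500 CPM or more and 18 at 1000 CPM or more. CPM is not divided by transcript length, and lengths were not available here, so a rank is a rank by reads and not by molecules. All 200 had at least 10 counts in every hippocampus library. Summed, they took 9.17% of all hippocampus counts, and the 10 most abundant took 1.57%. At the lower end, ENSMMUT00000069145.1 was the last to be kept with a mean of 170.6 CPM, after ENSMMUT00000026245.3 with 171.0 CPM and ENSMMUT00000028877.3 with 171.9 CPM. Just outside were ENSMMUT00000012846.3 with 169.2 CPM, ENSMMUT00000008273.3 with 165.7 CPM and ENSMMUT00000023436.3 with 165.4 CPM. On the side of the tissue ratio, ENSMMUT00000067339.1 was kept at 20.4 times its higher other tissue, ENSMMUT00000032952.3 at 20.7 times and ENSMMUT00000020186.3 at 20.8 times. At hippocampus levels above the lowest kept, ENSMMUT00000020714.3 fell short at 19.5 times, ENSMMUT00000028583.3 at 19.3 times and ENSMMUT00000013518.3 at 18.0 times.

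**Figure D1:**
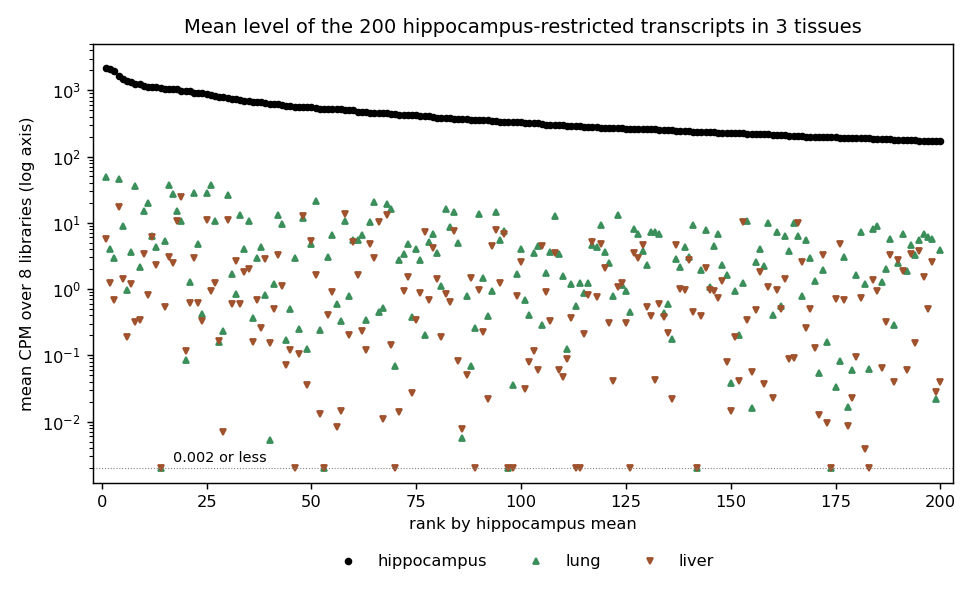
Mean CPM over 8 libraries (log axis) in hippocampus, lung and liver for the 200 transcripts, in order of hippocampus mean, with values at or near 0 drawn on the dotted line. The hippocampus points fall smoothly from 2202 to 171 CPM, while the lung and liver points scatter over several orders of magnitude, up to 49.8 CPM in lung and 24.2 CPM in liver.

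The most abundant, ENSMMUT00000025160.3, had 2529, 2493, 1834 and 1712 CPM in the hippocampus of clinical animals 1 to 4, and 2393, 2270, 2265 and 2119 CPM in oral animals 1 to 4. The oral values lay inside the clinical range, which was wider. Its mean in the lung was 49.8 CPM, the highest lung mean of the 200, and in the liver 5.78 CPM. For ENSMMUT00000000748.3 the values were 1944, 2016, 2227 and 2460 CPM with the clinical treatment, and 1877, 1807, 2469 and 2007 CPM with oral Beta-P. Clinical animal 4 and oral animal 3 stood highest, and the groups overlapped over nearly their whole range. ENSMMUT00000066073.1 had 2015, 1864, 1717 and 2196 CPM with the clinical treatment, against 2596, 1985, 1468 and 1871 CPM with oral Beta-P, so both the highest and the lowest library were oral.

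ENSMMUT00000028103.3 was at 1542, 2047, 1578 and 1535 CPM in the clinical animals, and at 1357, 1694, 1634 and 1535 CPM in the oral animals. Clinical animal 2 stood well above the other 7 libraries. ENSMMUT00000066640.1 had 1423, 1553, 1668 and 1577 CPM with the clinical treatment, and 1169, 1359, 1575 and 1466 CPM with oral Beta-P. The 2 lowest libraries were oral, and the other 2 oral libraries lay among the clinical ones. ENSMMUT00000012956.3 was among the steadier ones, with 1426, 1522, 1386 and 1381 CPM against 1328, 1394, 1467 and 1277 CPM, and its means of 0.966 CPM in lung and 0.192 CPM in liver made it 1447 times as abundant in the hippocampus as in the lung.

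Of the remaining 4 of the 10 most abundant, ENSMMUT00000033472.3 had 1349, 1090, 1481 and 1492 CPM in the clinical animals, and 1415, 1264, 1283 and 1441 CPM in the oral animals. ENSMMUT00000072923.1 had 1224, 1007, 1468 and 1407 CPM against 1403, 1290, 1083 and 1112 CPM. In both, clinical animal 2 was the lowest of the 8 libraries. ENSMMUT00000017408.3 had 1258, 1125, 1396 and 1045 CPM against 1286, 1376, 1115 and 1190 CPM. ENSMMUT00000005862.3 had 1180, 1092, 1121 and 1176 CPM against 1230, 1114, 1160 and 1222 CPM. The last was the most even of the 10, with a coefficient of variation (CV, the SD as a percent of the mean) of 4.32% over the 8 libraries.

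**Figure D2:**
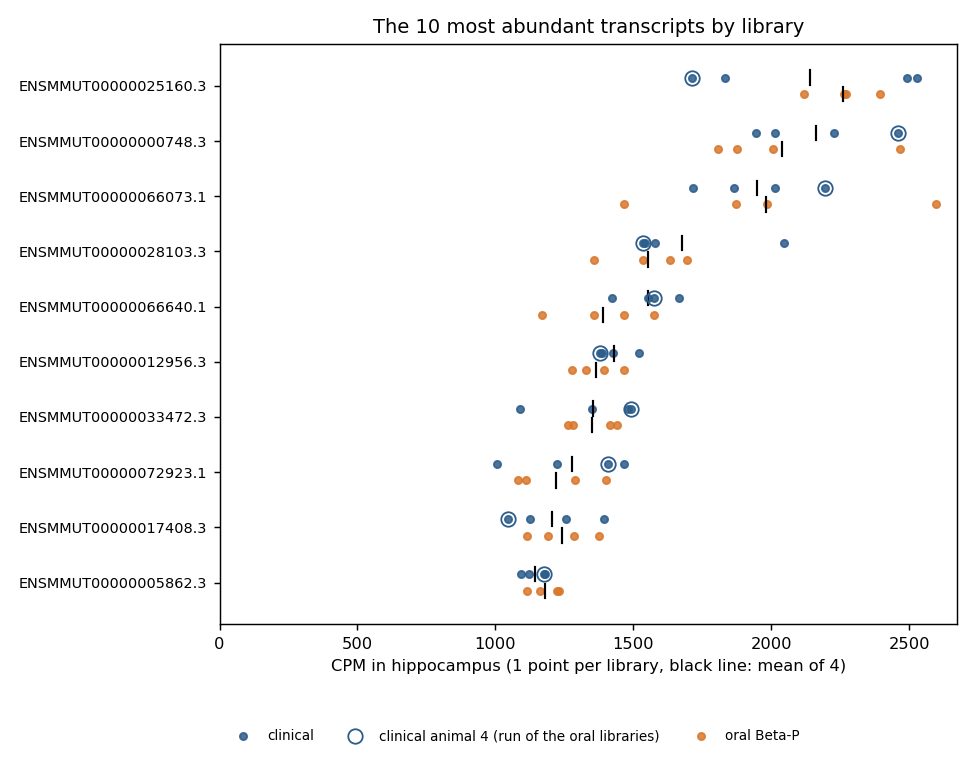
CPM in each of the 8 hippocampus libraries for the 10 most abundant transcripts, with clinical animals in blue, oral Beta-P animals in orange, a ring around clinical animal 4 (sequenced in the run of the oral libraries) and a black line at each mean of 4. In every transcript the ranges of the treatments overlap.

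In the hippocampus none of the 200 transcripts was called between the treatments by edgeR's quasi-likelihood test, where a call needed a 1.5-fold change, p below 0.05 and q (the p adjusted by the Benjamini-Hochberg method) below 0.1, and the background was the same, with 0% of 29041 transcripts called. The smallest q-value of the 200 was 0.9999. DESeq2 also called none of the 200, where 0.165% of all transcripts with a p-value were called. At an unadjusted edgeR p below 0.05, 0 of the 200 were higher with oral Beta-P against 1.69% of all tested, and 1 (0.5%) was lower against 1.41%. In no transcript did all oral libraries lie above all clinical libraries, which held for 1.12% of all tested, and in none did all lie below, which held for 0.988%.

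The median standard error of the log2 fold change was 0.09 for the 200, against 0.18 for all transcripts tested. The fold changes ran from -0.46 to 0.20 on the log2 scale with a median of -0.03, where the median of all tested was 0.00. None reached 1.5-fold in either direction, against 8.79% of all tested. Among the 689 other transcripts at or above the lowest level of the 200, 0.29% did. The log2 fold change was within 0.1 of 0 in 154 of the 200 and in 549 of those 689. In 195 (97.5%) the 95% interval stayed within 1.5-fold, against 52.2% of all tested. Among those 689 others this share was 98.1%, so it was shared with other transcripts at or above the lowest level of the 200. By sign, 129 of the 200 (64.5%) were lower with oral Beta-P, compared with 56.6% of those 689 and 49.4% of all tested.

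**Figure D3:**
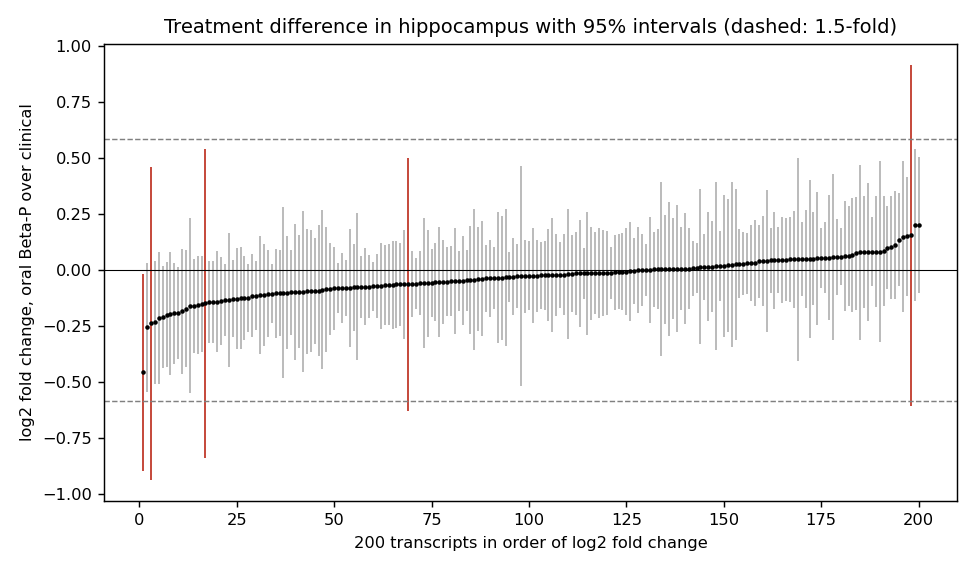
Log2 fold change of oral Beta-P over the clinical treatment in the hippocampus with its 95% interval for the 200 transcripts, in order of fold change, with dashed lines at 1.5-fold. The black points run from -0.46 to 0.20, and the 5 intervals that cross a dashed line are drawn in red.

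For the 10 most abundant, the log2 fold change of ENSMMUT00000066640.1 was the farthest from 0, at -0.15 (SE 0.094), followed by ENSMMUT00000028103.3 at -0.10 (SE 0.111). The other 8 lay between -0.08 (ENSMMUT00000000748.3, SE 0.116) and 0.08 (ENSMMUT00000025160.3, SE 0.135). ENSMMUT00000005862.3 had the smallest standard error, 0.059, with a log2 fold change of 0.05. A two-sided exact permutation test of the difference in means of 4 against 4 libraries gave p = 0.171 to 1 for these 10, with 0.0286 as the smallest p that this design allows.

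The transcript that was lower at an unadjusted p below 0.05 was ENSMMUT00000032574.3. It had 351, 382, 435 and 421 CPM in clinical animals 1 to 4 and 179, 298, 353 and 322 CPM in oral animals 1 to 4. Of the oral libraries, 3 were below every clinical library, and oral animal 3 was just above clinical animal 1, so the groups met. The means were 397 ± 38.0 CPM and 288 ± 76.2 CPM (SD, n = 4 each), and the log2 fold change was -0.46 (SE 0.193, 95% interval -0.89 to -0.02, adjusted p = 0.9999 by edgeR with the Benjamini-Hochberg method). Without oral animal 1, the lowest library, the log2 fold change was -0.28. In the liver, where it is scarce, the same transcript had 2.82, 4.90, 8.58 and 8.66 CPM with the clinical treatment. With oral Beta-P it had 2.45, 3.98, 1.94 and 2.83 CPM there. The liver log2 fold change was -1.17, with an unadjusted edgeR p of 0.0149. No selected transcript had an adjusted p below 0.58 in the liver by the same edgeR method. At an unadjusted p below 0.05, 3.48% of those tested there were lower, against 3.58% of all tested. In the lung the mean of ENSMMUT00000032574.3 was higher with oral Beta-P, at 1.02 ± 0.506 CPM against 0.834 ± 0.448 CPM.

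The next 4 on the lower side had smaller differences. ENSMMUT00000072161.1 was at 176, 215, 249 and 235 CPM in the clinical animals and at 199, 195, 189 and 169 CPM in the oral animals. Clinical animal 1 fell among the oral libraries, and the other 3 clinical libraries lay above all of them. ENSMMUT00000023311.3 was at 238, 206, 240 and 211 CPM against 179, 195, 184 and 223 CPM, where oral animal 4 fell among the clinical libraries. ENSMMUT00000024612.3 had 679, 540, 813 and 667 CPM against 510, 521, 651 and 567 CPM, and ENSMMUT00000011026.3 had 155, 192, 220 and 191 CPM against 163, 156, 155 and 185 CPM. In both, a clinical library lay within the oral range. Their log2 fold changes were -0.21, -0.19, -0.26 and -0.19 in this order, with 95% intervals that all held 0.

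On the higher side, the 5 transcripts with the smallest p were ENSMMUT00000058311.1, ENSMMUT00000069145.1, ENSMMUT00000008717.3, ENSMMUT00000055118.1 and ENSMMUT00000018649.3, with log2 fold changes of 0.20, 0.14, 0.20, 0.15 and 0.10 and unadjusted edgeR p-values of 0.170 to 0.255. ENSMMUT00000058311.1 had 182, 211, 141 and 152 CPM with the clinical treatment, and 196, 210, 208 and 172 CPM with oral Beta-P. The single highest library was clinical animal 2. ENSMMUT00000008717.3 had 240, 260, 338 and 340 CPM against 395, 370, 268 and 316 CPM, with low and high libraries in both treatments. ENSMMUT00000069145.1 ranged from 140 to 173 CPM against 160 to 189 CPM, ENSMMUT00000055118.1 from 292 to 371 CPM against 308 to 427 CPM, and ENSMMUT00000018649.3 from 177 to 215 CPM against 189 to 219 CPM. All of these groups overlapped.

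Run and gestational age moved with treatment in the hippocampus. Gestational age averaged 132.75 days with the clinical treatment and 129.75 days with oral Beta-P, and clinical animal 4 was the 1 clinical library in the run of the oral libraries. With run as a covariate, which rests the comparison on clinical animal 4, 4 of the 200 were higher with oral Beta-P at an unadjusted p below 0.05 against 4.69% of all tested, and 11 (5.5%) were lower against 2.58%. With gestational age as a covariate 2 were higher against 1.93%, and 10 (5%) were lower against 2.13%. None of the 200 was called in either fit, and calls were rare over all transcripts too, with 0 of 29041 in the gestational age fit. ENSMMUT00000032574.3 had a log2 fold change of -0.57 with run and -0.86 with gestational age, and its unadjusted p was below 0.05 in the second of these fits and not in the first. The parts of run and gestational age in these values were not tested further.

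The sum over the 200 transcripts in the hippocampus differed by -0.198 percentage points, oral minus clinical. In size this was below the clinical SD of 0.238, but above the oral SD of 0.0908 and the pooled SD of 0.180. As a share of all counts, the sum was 9.32%, 9.50%, 8.94% and 9.32% in clinical animals 1 to 4. It was 9.13%, 9.09%, 9.13% and 8.94% in oral animals 1 to 4. All clinical libraries except that of animal 3 lay above every oral library. The means were 9.27% ± 0.238 and 9.07% ± 0.0908 (SD, n = 4 each), and the lowest clinical and the lowest oral library were both at 8.94% when rounded to this precision. Within the run that held both treatments, clinical animal 4 was above the 4 oral animals. In the lung the sum was 0.108% ± 0.00426 with the clinical treatment and 0.114% ± 0.00625 with oral Beta-P, and in the liver 0.0380% ± 0.00217 and 0.0368% ± 0.00313 (n = 4 each). The groups overlapped in all 3 tissues. Since the tables of the tissues were counted separately, and the liver table in another way, levels set across tissues carry that difference too.

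**Figure D4:**
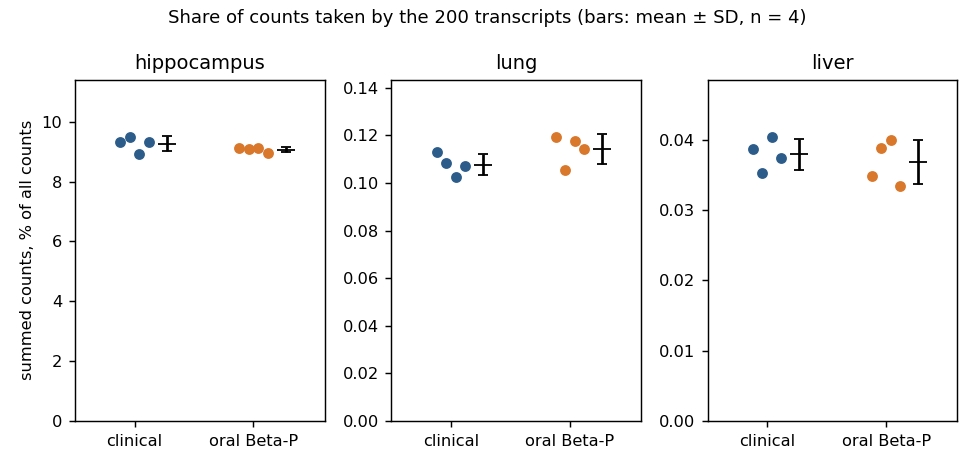
Share of all counts taken by the 200 transcripts together in each library (points) with mean ± SD of 4 (bars), by treatment, in hippocampus, lung and liver, each with its own axis from 0. The hippocampus libraries lie between 8.94% and 9.50%, and the treatments overlap in each tissue.

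Most of the 200 varied little between fetuses, but somewhat more than the other transcripts at or above their lowest level. Those others were not matched to the 200 by level. The CV over the 8 hippocampus libraries had a median of 9.0%, with the middle portion of the transcripts between 6.47% and 12.2%, and 117 were under 10%. The 689 other transcripts at or above the lowest level of the 200 had a median of 8.11%, with the middle portion between 5.90% and 10.5%. Of these, 497 were under 10%. A CV over 20% was found in 3.5% of the 200 and in 2.03% of the 689 others. At the lowest level kept, counting alone gives a CV of 1.61% in the smallest library, and the lowest CV of the 200 was 2.17%. The highest library was less than 1.5 times the lowest in 168 of the 200, and at least 2 times in 5. The SD was larger among the clinical than among the oral libraries in 128 (64%), and in 63.6% of the 689 others.

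A few transcripts differed widely between fetuses of the same treatment. ENSMMUT00000020299.3 had the largest CV, 33.2%, with 293, 515, 244 and 279 CPM in the clinical animals and 172, 293, 409.5 and 319 CPM in the oral animals. Clinical animal 2 was the highest and oral animal 1 the lowest. ENSMMUT00000044087.2 had 294, 249, 205 and 97.2 CPM against 207, 213, 135 and 159 CPM. Clinical animal 4 was the lowest here, and since it alone stands for the clinical treatment in the run of the oral libraries, the log2 fold change was -0.24 without run and 0.86 with run as a covariate. ENSMMUT00000063578.1, which had no count in any lung or liver library, had 688, 672, 218 and 403 CPM against 685, 526, 545 and 457 CPM, with clinical animal 3 lowest.

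ENSMMUT00000044743.2 had 615, 558, 364 and 303 CPM in the clinical animals and 511, 532, 371 and 345 CPM in the oral animals. In both treatments, 2 libraries stood high and 2 low. ENSMMUT00000018395.3 had 142, 281, 178 and 171 CPM against 180, 161, 166 and 246 CPM, with clinical animal 2 and oral animal 4 above the other 6. Across the 8 libraries its log2 level was correlated at r = 0.978 with that of ENSMMUT00000077212.1, which had 270, 514, 314 and 331 CPM against 346, 325, 341 and 457 CPM. This pair had the highest correlation among all pairs of the 200 and was picked for it, and the points share the libraries and their depth. These 5 most variable transcripts include 4 of the 5 whose 95% interval for the treatment difference crossed 1.5-fold, the other being ENSMMUT00000032574.3.

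**Figure D5:**
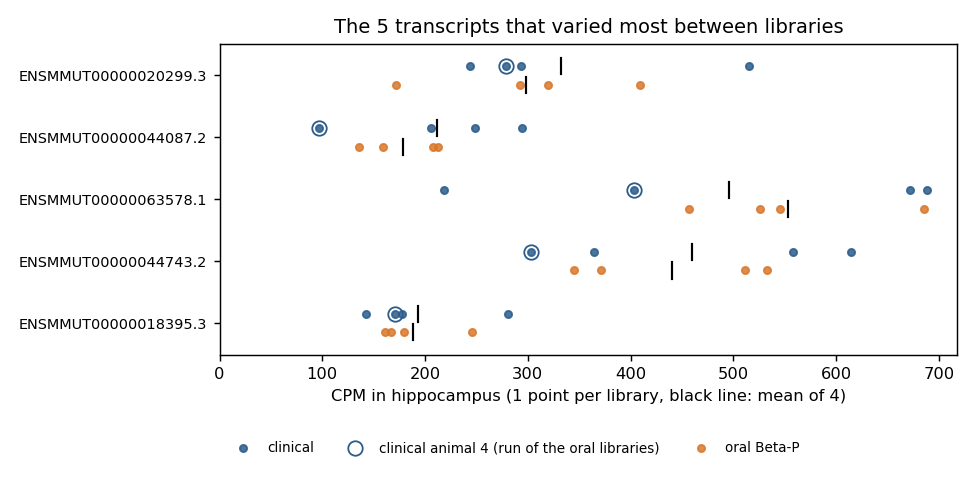
CPM in each hippocampus library for the 5 transcripts with the largest CV, with clinical animals in blue, oral Beta-P animals in orange, a ring around clinical animal 4 and a black line at each mean of 4. The spread inside each treatment is wider than the distance between the black lines, as in ENSMMUT00000063578.1, which ran from 218 to 688 CPM with the clinical treatment.

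The libraries did not take the extremes evenly. Clinical animal 2 was the highest library for 57 of the 200 (28.5%), against 17.1% of the 689 others, and clinical animal 3 was the lowest for 43 (21.5%), against 14.2%. This order depended on the scaling. With TMM scaling clinical animal 4 was most often the highest, for 52 (26%) against 31.2% of the others, clinical animal 2 was the highest for 43 (21.5%) against 13.9%, and clinical animal 3 was the lowest for 57 (28.5%) against 24.8%. In a principal component analysis of the 200 over the hippocampus libraries the first component held 31.8% of the variance, with clinical animals 2 and 3 at its ends and the 4 oral animals between them. The second held 24.0%, with oral animals 1 and 3 at its ends, and the third 15%. None of the 3 separated the treatments.

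In the lung and the liver the selection fixed that the 200 are low, and their levels there are given as a description. In the lung the median over the 200 was 2.99 CPM, 63 had a mean under 1 CPM, and 31 had 10 CPM or more. In the liver the median was 0.608 CPM, with 126 under 1 CPM and 10 at 10 CPM or more. A count in all 8 libraries was found for 159 in the lung and 127 in the liver, so most were scarce there and not at 0. The mean was higher in the lung than in the liver for 167, and the reverse held for 30. For 103, all lung libraries were above all liver libraries, and for 9 all liver libraries were above all lung libraries. The same counts were not made over all transcripts, and the liver values are estimated counts while those of the lung are whole. The order of lung and liver is therefore not read as a trait of the 200.

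The hippocampus mean was a median of 99.1 times the mean of the higher other tissue. It was at least 50 times for 144 of the 200, at least 100 times for 99 and at least 1000 times for 35. For 3 transcripts there was no count in any of the 16 lung and liver libraries. ENSMMUT00000024513.3 had 1049, 996, 1004 and 1187 CPM in the hippocampus of the clinical animals, and 1080, 1088, 1012 and 1186 CPM in that of the oral animals. With a floor of 3 counts over the 8 libraries of a tissue, 0.0160 CPM in lung and 0.0130 CPM in liver, it was at least 66990-fold higher in the hippocampus than in the lung and at least 82822-fold higher than in the liver. The floor covers counting error only. ENSMMUT00000063578.1, at a mean of 524 CPM, was at least 32675-fold and 40396-fold higher, and ENSMMUT00000072851.1, at 336 CPM, at least 20947-fold and 25897-fold higher.

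The selection fixed a gap of at least 20 times between the tissue means, and between single libraries the gap was smaller for some transcripts. The closest approach was ENSMMUT00000014817.3, whose lowest hippocampus library had 164 CPM and whose highest library elsewhere had 25.3 CPM, in the liver of oral animal 3, a 6.46-fold gap. Its liver values were 5.58, 9.13, 3.0 and 5.90 CPM in the clinical animals and 21.2, 6.92, 25.3 and 4.16 CPM in the oral animals, so 2 oral livers stood above the rest. The next was ENSMMUT00000055077.1, with a 10.3-fold gap set by 32.6 CPM in the lung of clinical animal 2. Its lung values ran from 14.3 to 32.6 CPM with the clinical treatment and from 4.46 to 25.7 CPM with oral Beta-P.

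The 3 with the highest lung means were ENSMMUT00000025160.3, ENSMMUT00000028103.3 and ENSMMUT00000020501.3. In the lung, ENSMMUT00000025160.3 had 48.7, 48.9, 45.7 and 55.9 CPM with the clinical treatment and 39.2, 38.8, 58.0 and 63.6 CPM with oral Beta-P, where the oral animals lay on both sides of the clinical ones. ENSMMUT00000028103.3 had 37.2, 42.0, 35.3 and 38.2 CPM against 61.4, 46.1, 57.7 and 53.0 CPM, so that every oral lung was above every clinical lung. Its log2 fold change in the lung was 0.51 (SE 0.103, adjusted p = 0.336 by edgeR with the Benjamini-Hochberg method), below the fold change of a call, and in the hippocampus it was -0.10. ENSMMUT00000020501.3 ranged from 21.9 to 63.0 CPM against 15.1 to 41.8 CPM.

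The 3 with the highest liver means were ENSMMUT00000009616.3, ENSMMUT00000028103.3 and ENSMMUT00000029574.3. ENSMMUT00000009616.3 had 31.3, 21.5, 28.3 and 27.2 CPM in the clinical livers and 21.2, 29.0, 16.4 and 18.6 CPM in the oral livers. ENSMMUT00000028103.3 ranged from 12.6 to 26.8 CPM against 13.1 to 21.7 CPM, and these groups overlapped as well. ENSMMUT00000029574.3 had 9.0, 12.0, 21.6 and 27.3 CPM in the clinical livers and 5.60, 11.2, 8.90 and 12.0 CPM in the oral livers, with a log2 fold change of -0.91 (SE 0.378). In the lung the same transcript had 6.04, 8.15, 2.98 and 6.98 CPM against 8.38, 17, 17.4 and 18.8 CPM, with all oral lungs higher and a log2 fold change of 1.35 (SE 0.346). The difference between the tissues was not tested. In the hippocampus it was at 476 to 607 CPM against 465 to 532 CPM.

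In the lung 155 of the 200 passed the filter on low counts, and edgeR called none, against 0.00369% of the 27108 tested. At an unadjusted p below 0.05, 9 were higher with oral Beta-P (5.81%) against 4.19% of all tested, and 6 were lower (3.87%) against 4.95%. All oral libraries lay above all clinical libraries in 5 (3.23%) against 3.36%, and below in 5 (3.23%) against 2.94%. These shares were near the background. In the lung clinical animals 1 and 2 were in one run, and clinical animals 3 and 4 with the 4 oral animals in another. With run as a covariate in the lung, 13 were higher (8.39%) against 4.15% and 6 were lower (3.87%) against 3.33%, and with gestational age 4 were higher (2.58%) against 2.38% and 3 were lower (1.94%) against 2.92%. DESeq2 called 5 of 192 in the lung (2.6%) against 0.864% of all with a p-value. They were ENSMMUT00000014066.2 and ENSMMUT00000029574.3, both higher with oral Beta-P, and ENSMMUT00000031258.3, ENSMMUT00000027931.3 and ENSMMUT00000016022.3, all lower. The DESeq2 q-values of these 5 were 0.0242 to 0.0961. The smallest DESeq2 q of the 200 in the lung was lower, at 0.0034. It belonged to a transcript outside these 5, which passed on q and missed a call on the fold change.

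Those 5 were singled out after their values were seen. ENSMMUT00000014066.2 had 8.87, 8.31, 4.75 and 10.9 CPM in the clinical lungs and 19.8, 13.4, 14.8 and 14.6 CPM in the oral lungs, with no overlap. ENSMMUT00000016022.3 had 4.57, 7.86, 4.31 and 8.27 CPM against 2.20, 3.08, 2.26 and 3.34 CPM, again with no overlap. ENSMMUT00000031258.3 had 5.10, 3.47, 18.2 and 5.22 CPM against 2.60, 2.04, 1.13 and 1.99 CPM, and ENSMMUT00000027931.3 had 9.04, 6.86, 19.7 and 7.90 CPM against 4.89, 5.69, 5.56 and 3.71 CPM. In the last pair the groups did not overlap either, and clinical animal 3 stood far above the other clinical lungs. In edgeR their unadjusted p-values were 0.0023 to 0.0092 and their adjusted p-values 0.358 to 0.399 by the Benjamini-Hochberg method. In the hippocampus, ENSMMUT00000014066.2, ENSMMUT00000016022.3, ENSMMUT00000031258.3 and ENSMMUT00000027931.3, at 231 to 565 CPM, had log2 fold changes between -0.0048 and 0.06. The other of the 5, ENSMMUT00000029574.3, had hippocampus means of 529 CPM with the clinical treatment and 491 CPM with oral Beta-P, lower with oral Beta-P and not higher as in the lung.

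In the liver 115 of the 200 passed the filter, and edgeR called none, as it did for 0% of the 25064 tested. At an unadjusted p below 0.05, 4 were higher (3.48%) against 3.5% of all tested, and 4 were lower (3.48%) against 3.58%. All oral libraries lay above all clinical libraries in 2 (1.74%) against 2.28%, and below in 2 (1.74%) against 1.9%. In the liver oral animal 3 was in another run than the other 7 libraries. With run as a covariate in the liver, 3 were higher (2.61%) against 2.68% and 3 were lower (2.61%) against 3.48%, and with gestational age 2 were higher (1.74%) against 2.22% and 2 were lower (1.74%) against 3.07%. DESeq2 called 1 of 187 (0.535%) against 0.778%. This was ENSMMUT00000069886.1, with 1.81, 3.10, 2.19 and 1.90 CPM in the clinical livers and 0.542, 1.03, 1.1 and 0.543 CPM in the oral livers, which did not overlap. Its edgeR log2 fold change in the liver was -1.52 (SE 0.340, adjusted p = 0.581 by the same edgeR test), and in the hippocampus, at a mean of 427.5 CPM, it was -0.02.

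Over all 24 libraries, the transcripts whose log2 level was most like that of ENSMMUT00000025160.3, among 26001 compared, were ENSMMUT00000018090.3 (Pearson r = 0.997), ENSMMUT00000023336.2 (r = 0.996) and ENSMMUT00000060890.1 (r = 0.996). Their hippocampus means were 320, 361 and 158 CPM, and none is among the 200. With 3 tissues this far apart the likeness is set mainly by the tissue, and the points share libraries and depth, so these values are a description.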

How the data were processed

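The authors extracted total RNA, selected polyadenylated RNA and sequenced paired ends. Their processing notes name STAR, featureCounts and DESeq2, and the paper names the macaque genome MMUL1.0. The annotation release and the treatment of reads shared by transcripts are not given in the sources used here. For lung and hippocampus the authors deposited whole counts per Ensembl transcript, without normalization. In the liver the deposited values are estimated counts, 55.4% of them with a fractional part, and they were rounded for the tests. Animals were numbered 1 to 4 within a treatment, in the order of their labels.

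From the counts, CPM was computed with the library's column sum. Oral Beta-P was compared with the clinical treatment in each tissue's 8 libraries with edgeR 4.0.16 (limma 3.58.1, R 4.3.3): filterByExpr, TMM normalization, the quasi-likelihood test and Benjamini-Hochberg adjustment over all transcripts tested. Standard errors were derived from the F statistic. A call needed a fold change of at least 1.5, p below 0.05 and q below 0.1. DESeq2 1.42.0, RLE normalization, other filters, a robust fit, run or gestational age as covariate and leaving out each library were alternatives, and the scripts were tested on simulated data. Named are the 10 most abundant, the 5 with the smallest p in each direction, the 5 with the largest CV, the 3 highest in lung and in liver, and the transcripts next to each threshold. Others were named after their values were seen. The transcripts and lists were chosen with earlier results of these data known. Marker lists were not used, since identifiers could not be paired with gene names: 0 of the transcript identifiers are in the gene tables. Libraries held 21088272 to 35254898 counts, so that in the hippocampus counting error is small beside the differences between animals.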

Additional observations from a re-analysis of the deposited data

Results flagged for a closer look

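Groups of 4 libraries of a treatment were examined for the hippocampus level of the named transcripts and for the sum over the 200 in each tissue, 76 groups in all. In 4 of them 1 library lay far from the other 3 by Dixon's criterion, and chance would give about 3.8, or 1 in 20. ENSMMUT00000028103.3 had 2047 CPM in clinical animal 2, against 1535 to 1578 CPM in the other clinical animals. ENSMMUT00000069145.1 had 139.8 CPM in clinical animal 2, against 169.2 to 172.6 CPM. ENSMMUT00000009616.3 had 1043 CPM in oral animal 3, against 934 to 938 CPM in the other oral animals. ENSMMUT00000067339.1 had 286.0 CPM in oral animal 1, against 254.6 to 257.1 CPM.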

How the results depend on the processing

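No hippocampus transcript of the 200 was called under any of the 16 other settings run. Calls were rare over all transcripts too. The most in any of these settings was 110 of 45579 listed, with DESeq2 without its filters, so the 0 is not particular to the 200. In the lung DESeq2 called 5 and in the liver 1, against 0 with edgeR. The number of the 200 with an unadjusted p below 0.05 in the hippocampus was 1 with edgeR (3.11% of all tested), 7 with DESeq2 (0 higher with oral Beta-P, 7 lower; 3.24% of all), 7 with DESeq2 without its filters (3.37%), 15 with run as a covariate (4 higher, 11 lower; 7.27%), 12 with gestational age as a covariate (2 higher, 10 lower; 4.06%), and 2 to 10 when a library was left out (2.66% to 4.11%). It was 10 without clinical animal 3 (0 higher, 10 lower; 3.23%) and 10 without oral animal 3 (1 higher, 9 lower; 4.01%), and leaving out any of the 8 libraries changed the count by over 1.5 times. The cause was not tested. The median log2 fold change of the 200 stayed between -0.07 and -0.01.

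Of 20 transcripts whose log2 fold change was followed, 11 kept their direction in all 16 settings. With run as a covariate the direction turned for ENSMMUT00000066073.1 (-0.17), ENSMMUT00000028103.3 (0.0000), ENSMMUT00000033472.3 (-0.16), ENSMMUT00000005862.3 (-0.013) and ENSMMUT00000008717.3 (-0.032), and with gestational age for ENSMMUT00000072923.1 (0.069). ENSMMUT00000033472.3, at 0.00, also turned with DESeq2 (-0.0021 with and without its filters), RLE normalization (-0.0017) and a minimum of 10 counts in every library (-0.0009).

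With 1 library left out in turn, the log2 fold change ran from -0.0060 to 0.19 for ENSMMUT00000025160.3, -0.19 to 0.0000 for ENSMMUT00000000748.3, -0.12 to 0.14 for ENSMMUT00000066073.1, -0.15 to 0.0053 for ENSMMUT00000028103.3, -0.092 to 0.062 for ENSMMUT00000033472.3, -0.16 to 0.0014 for ENSMMUT00000072923.1 and -0.01 to 0.11 for ENSMMUT00000017408.3.

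The number of transcripts meeting the selection ran from 821, with a ratio of 50, to 1531, with a ratio of 10, and 144 to 200 of the 200 were shared. No paired analysis was possible because the treatments were given to different animals, so the groups compared within a tissue share no animal. In the lung and the liver, where the selection made the 200 scarce, 45 and 85 did not pass the filter on low counts, and the median standard error of those that did was 0.31 and 0.38 on the log2 scale.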
